A study of Oryza sativa with 26 samples.

Results

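The earliest step of a rice anther series was examined here, from anthers in which archesporial cells were forming to anthers whose pollen mother cells stood before meiosis. It rests on 6 of 26 arrays, the 3 titled An1 and the 3 titled Mei1, which were compared with each other using the spread of these 6 arrays alone. All anthers came from Oryza sativa grown in paddy at Mishima, with no cultivar, genotype or treatment named. An1 is labelled as the stage when hypodermal archesporial cells form, and Mei1 as premeiotic S or G2 phase. The other 20 arrays cover meiosis (M1 to M3) and pollen development (P1 to P3) and serve only to show where the same transcripts stood later. Whole anthers were used, so the germ cells are a part of each sample, and the number of plants behind an array is not stated. In such bulk RNA, a change in the number of cells of a type and a change in RNA per cell cannot be told apart. The titles call the arrays biological replicates. Where cultures or plants were shared is not stated, so p-values measure the spread between these arrays.

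In a young anther, archesporial cells beneath the epidermis divide to give the sporogenous cells inside and the wall layers outside. The innermost wall layer becomes the tapetum, which feeds the meiocytes and later supplies the pollen wall. The sporogenous cells become pollen mother cells, which copy their DNA in a last S phase before entering prophase. In rice, the receptor kinase MSP1 and its ligand TDL1A limit how many cells become sporogenous, and the bHLH factors TDR, TIP2 and EAT1 act in the tapetum.

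Values are array intensities that the authors divided by the 75th percentile of each array, so that a value of 1 equals that percentile. Intensities are given in the order of replicates 1, 2 and 3. Differences are Mei1 minus An1 on log2(intensity + 1), which understates changes at low intensity. The 6 arrays held the transcripts of stamens and of early germ cells. MADS16, a stamen identity factor, had a mean of 38.3 ± 0.684 in An1 and 40.7 ± 3.70 in Mei1 (SD, n = 3 each). MEL1, the rice germ-cell Argonaute, had 45.8 ± 2.39 and 40.2 ± 2.57. Markers of the differentiated tapetum (C4, C6, RTS, CYP703A3 and CP1) stood between 0.14 and 0.25 in the mean of either stage. The carpel markers MADS13 and MADS21 stood at 0.251 and 0.122 in An1 and at 0.168 and 0.119 in Mei1, and DL at 0.444 and 0.311. Of the chloroplast markers, CAB2R had 21.1 ± 6.52 in An1 and 19.6 ± 15.9 in Mei1, while RBCS had 0.856 and 0.940. The pollen markers ADF1 and SUT1 stood between 0.36 and 0.49.

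The profiles of the stages were close. Across the 36050 probe sets tested, arrays correlated at 0.993 to 0.995 within An1, at 0.971 to 0.988 within Mei1 and at 0.981 to 0.991 between the stages. One Mei1 array could thus differ more from another Mei1 array than from an An1 array. Mei1 replicate 1 stood apart for genes of DNA replication and histones, and the medians of these lists are given with and without it.

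Between An1 and Mei1 most of the probe sets that passed were higher in Mei1, and their number depended on the settings. By limma, 31 of the 36050 probe sets (0.086%) had a Benjamini-Hochberg adjusted p under 0.05 and a log2 difference of at least 1, all higher in Mei1, and 0 were lower. By the adjusted p alone, 121 (0.336%) were higher and 6 (0.0166%) were lower. At an unadjusted p under 0.05, 1782 (4.94%) were higher and 1429 (3.96%) lower. The median difference over all tested probe sets was 0.0033, and 37 reached 1 while 1 reached -1. The 31 differed by 1.02 to 2.31, and their mean intensities by 2.24-fold to 5.84-fold. Their An1 means ran from 0.511 to 5.76, above the array medians of 0.242 to 0.292, and 18 of the 31 were under 1. The smallest p that an exact two-sided permutation test of 3 against 3 arrays can give is 0.1, so the calls rest on limma's pooling of the spread over probe sets. They were sensitive to single arrays: none of the 31 or the 127 passed by limma without An1 replicate 2, where 2164 probe sets had an unadjusted p under 0.05, or without Mei1 replicate 3, where 1881 did. Without An1 replicate 1, 2 probe sets passed both thresholds, and 1 of the 31 was among them. With a limma fit that held the prior variance equal at all intensities, 0 probe sets passed and 3324 had an unadjusted p under 0.05. Some other settings gave more calls in both directions. With array weights 808 probe sets were higher and 469 lower by the adjusted p, and without Mei1 replicate 2 these were 200 and 110. Without Mei1 replicate 1 they were 265 and 37. With hybridization spike-in scaling fewer were higher, 90, and more were lower, 21, and 5 of those lower passed both thresholds. Of the 127, 61 kept their call there. The log2 difference of every one of the 127 kept its sign under each alternative in which it was tested. In all 127, replicates did not overlap between the stages, against 8.52% higher and 6.6% lower over all tested probe sets. Unless arrays were rescaled, this lack of overlap fixed the sign in advance.

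**Figure D1:**
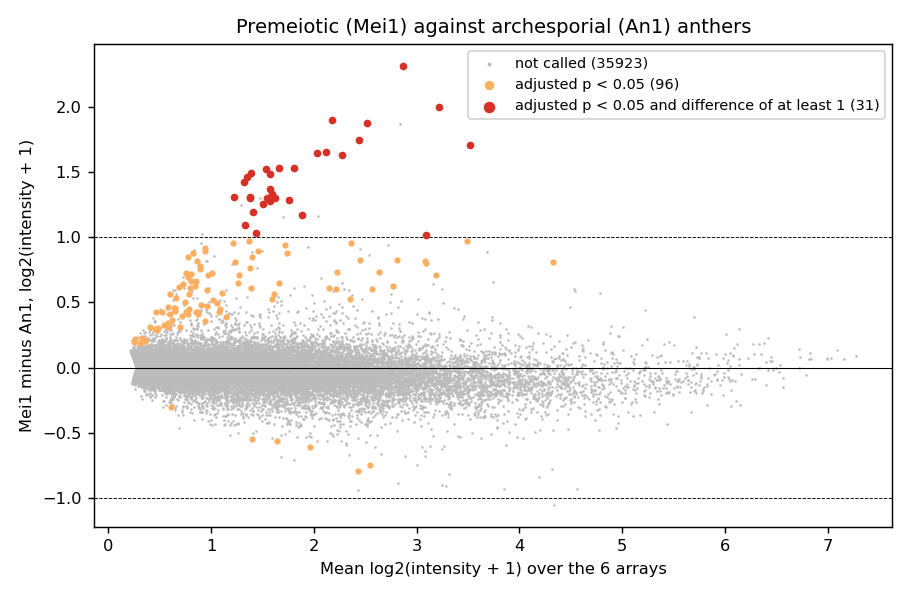
Each point is 1 of the 36050 probe sets tested, with its mean log2(intensity + 1) over the 6 arrays on the x axis and the Mei1 minus An1 difference on the y axis; dashed lines mark 1 and -1. The 31 red points all lie above the upper line, and the orange points, which passed the adjusted p alone, include the 6 below 0.

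The largest rises belonged to genes without a symbol. LOC4341367 had intensities of 0.751, 2.35 and 4.98 in An1 and of 10.9, 19.7 and 16.4 in Mei1. Every Mei1 array was more than 2-fold above the highest An1 array, although the An1 arrays themselves differed widely (log2 difference 2.31, SE 0.37, limma adjusted p = 0.0444). LOC4336063 had 1.67, 4.37 and 5.97 in An1 and 13.6, 21.6 and 18.4 in Mei1 (log2 difference 2.0, SE 0.30, limma adjusted p = 0.0358). LOC4332989 had 0.882, 2.21 and 3.44 against 8.16, 11.1 and 10.9 (log2 difference 1.87). The stages did not overlap for either gene. LOC4345222 started higher, at 2.71, 7.21 and 7.35, and reached 17.9, 20.4 and 21.1 (log2 difference 1.71). LOC4340504 had 1.04, 2.01 and 3.29 against 6.84, 12.3 and 8.44 (log2 difference 1.74). In all of these, An1 replicate 1 was the lowest array and Mei1 replicate 1 the lowest of its stage. LOC4336725, LOC4325129 and LOC4324914 differed by 1.63, 1.48 and 1.46. LOC4336466 rose from 0.258, 0.373 and 1.21 to 2.53, 3.42 and 4.45 (log2 difference 1.49), still low beside the 59.97 it reached in M1 and the 140 in M2. Of 14 called genes read by more than 1 tested probe set, 1 had all of them called and 7 had all in the same direction. The second probe set of LOC4340504 differed by -0.01, that of LOC4345222 by -0.03, and the lowest of the 3 of LOC4336466 by -0.02, at An1 means of 0.292, 0.435 and 0.633.

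The 31 probe sets had the same order of replicates within a stage. In 30 of 31 An1 replicate 1 was the lowest An1 array, against 26.2% of all tested probe sets, and in 31 of 31 An1 replicate 3 was the highest, against 25.6%. Mei1 replicate 1 was the lowest Mei1 array in 31 of 31, against 41.3%. Their median log2 level was 0.70, 0.89 and 1.26 on the An1 arrays and 2.03, 2.61 and 2.42 on the Mei1 arrays. The probe sets are therefore not independent of each other, since they share this ordering.

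EAT1, a bHLH factor of the tapetum, was the largest rise among genes with a symbol. Its intensity was 0.607, 1.38 and 2.22 in An1 and 4.36, 8.67 and 6.26 in Mei1. The lowest Mei1 array lay about 2-fold above the highest An1 array (log2 difference 1.64, SE 0.25, limma adjusted p = 0.0389). In the later stages it stood at 9.29 in M1, 2.96 in M2, 16.5 in M3, 12.2 in P1 and 0.237 in P3. Its call was kept in 3 of the 6 fits that left out 1 array, with adjusted p from 0.00574 to 0.268.

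The other genes with a symbol that passed both thresholds were RR9, CAD6 and GLN1-3, each with a known biochemical or signalling role. RR9, a type-A response regulator of cytokinin signalling, had 0.744, 0.818 and 1.00 in An1 and 2.57, 5.15 and 4.01 in Mei1 (log2 difference 1.37, SE 0.17, limma adjusted p = 0.0258). Its An1 arrays lay close together and below all Mei1 arrays. CAD6, of the cinnamyl alcohol dehydrogenase family of lignin precursor enzymes, had 0.923, 0.966 and 1.70 against 3.08, 5.46 and 4.61 (log2 difference 1.28, SE 0.18, limma adjusted p = 0.0278). GLN1-3, a cytosolic glutamine synthetase that assimilates ammonium, had 0.450, 0.767 and 0.997 against 2.14, 2.75 and 3.20 (log2 difference 1.09, SE 0.13, limma adjusted p = 0.0258). The stages did not overlap for any of the 3, as for all 127 called probe sets. CAD6 was highest in P1 at 14.0, and RR9 in M3 at 5.97. GLN1-3 had its highest mean in P1, at 9.19 from arrays of 4.442, 6.263 and 16.859, against 7.78 ± 0.385 in M3 (SD, n = 4).

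Smaller rises passed the adjusted p alone, and the largest of them among genes with a symbol follow. BIMK2, a MAP kinase, had 0.595, 0.737 and 1.03 in An1 and 1.85, 2.47 and 2.09 in Mei1 (log2 difference 0.81). CIPK5, a kinase of the family that binds CBL calcium sensors, had 0.376, 0.604 and 0.633 against 1.28, 1.64 and 1.64 (log2 difference 0.71). The means of CIPK5 were far higher at the end of development, with 19.1 ± 27.4 in P2 and 174 ± 130 in P3 (SD, n = 3 each). Its arrays within these stages differed widely. The type 2C phosphatases PP2C16 and PP2C21 were bright in both stages: PP2C16 had 4.89, 5.54 and 6.04 against 11.3, 10.1 and 9.52 (log2 difference 0.80). PP2C21 had 5.31, 6.96 and 6.21 against 10.5, 10.8 and 10.7 (log2 difference 0.71), and it was highest in Mei1 of all 8 stages. None of these genes had overlapping stages, which was a condition for naming them.

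**Figure D2:**
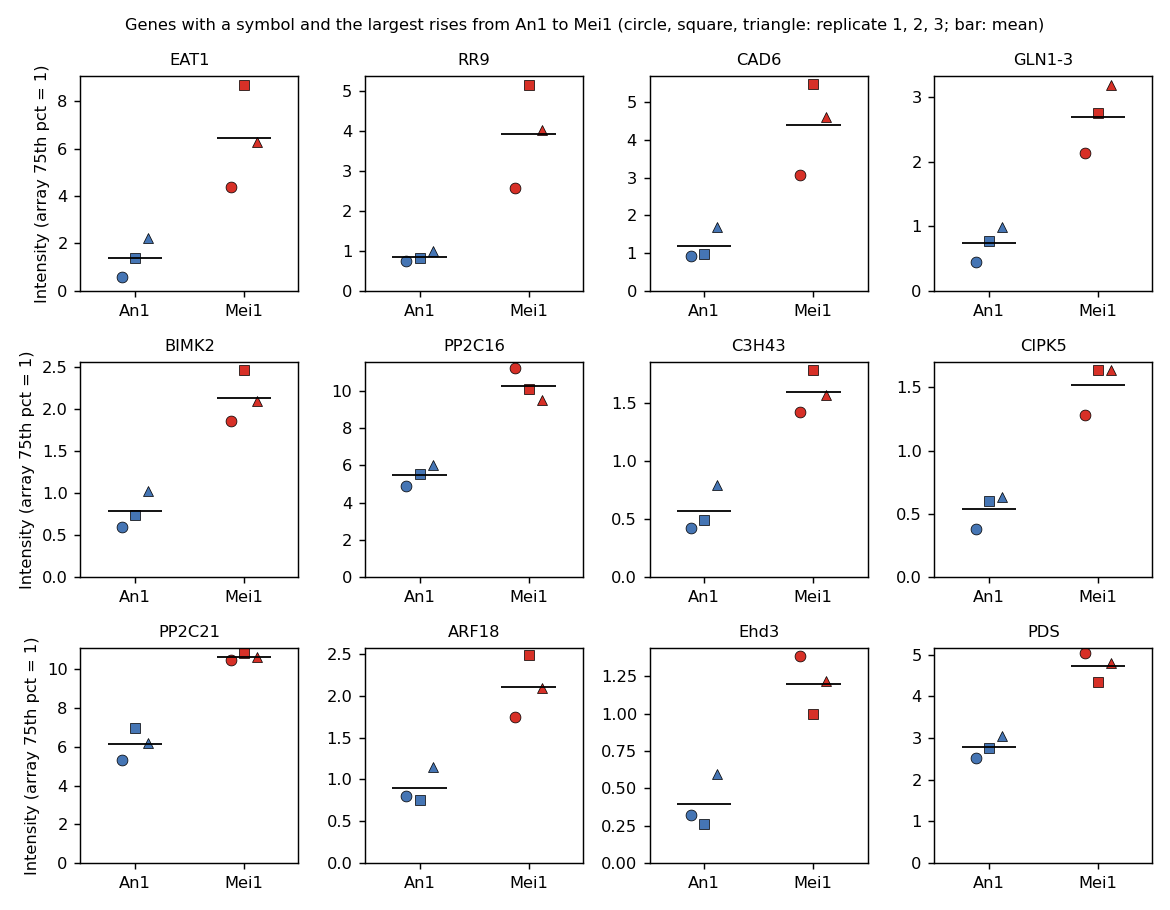
Intensity (linear scale, each array's 75th percentile set to 1) of 12 genes with a symbol on the 3 An1 arrays (blue) and the 3 Mei1 arrays (red), with symbols for the replicate and a bar for the mean. In every panel the 3 Mei1 values lie above the 3 An1 values, which was required of the genes shown. Differences run from 0.60 in PDS to 1.64 in EAT1.

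The remaining rises with a symbol were spread over regulators and metabolic enzymes. ARF18, an auxin response factor, had 0.799, 0.756 and 1.15 in An1 and 1.75, 2.49 and 2.10 in Mei1 (log2 difference 0.71). C3H43, a CCCH zinc finger gene, had 0.425, 0.494 and 0.796 against 1.42, 1.79 and 1.57 (log2 difference 0.73). Ehd3, a PHD finger protein that promotes flowering in rice, had 0.322, 0.258 and 0.599 against 1.38, 0.994 and 1.22 (log2 difference 0.66). On these probe sets both regulators were highest in M1, at 2.84 and 3.59. Only 1 of the 3 probe sets of Ehd3 passed, and another, brighter one differed by -0.15, with means of 3.20 in An1 and 2.80 in Mei1. PDS, the phytoene desaturase of carotenoid synthesis, had 2.51, 2.76 and 3.04 against 5.03, 4.34 and 4.80 (log2 difference 0.60). SWEET1a, of a family of sugar transporters, had 3.21, 3.18 and 3.38 against 4.78, 5.52 and 5.17 (log2 difference 0.53). IAA14, an Aux/IAA repressor, had 0.323, 0.343 and 0.308 against 0.716, 0.575 and 0.762 (log2 difference 0.34). The limma adjusted p of these 6 genes lay between 0.0258 and 0.0394. 4CL5, a 4-coumarate:CoA ligase, differed by 0.47 and HCT2, of the hydroxycinnamoyltransferase family, by 0.39. Both passed the adjusted p and are named after their values were seen. They stood at 7.22 and 7.59 in M1, against 1.302 and 0.885 in Mei1.

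The 6 probe sets that fell differed by -0.79 to -0.30, and 2 of them name a gene. Their number was 469 with array weights, 110 without Mei1 replicate 2 and 0 without An1 replicate 2. LOC4330629 had 2.07, 2.25 and 2.26 in An1 and 1.09, 1.32 and 1.15 in Mei1 (log2 difference -0.55, SE 0.07, limma adjusted p = 0.0258). LOC4342752 had 0.698, 0.760 and 0.625 against 0.342, 0.383 and 0.397 (log2 difference -0.30, SE 0.05, limma adjusted p = 0.0495). Their stages did not overlap. Of the 6, 5 were highest in An1 of all 8 stages, against 5606 of 36050 tested probe sets (15.55%), but their choice as higher in An1 than Mei1 bars Mei1 and favours An1. LOC4330629 continued at 0.734 in M1 and 0.480 in M2.

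Many of the transcripts that rose stood higher still during meiosis. Of the 31 probe sets past both thresholds, 14 were highest in M1, 7 in M2, 5 in M3 and 5 in P1, and 0 in An1 or Mei1. Over all tested probe sets 1507 of 36050 (4.18%) were highest in M1, while 14383 (39.9%) were highest in P3. The choice of probe sets higher in Mei1 than An1 bars An1 as their highest stage, so these counts are a description. LOC4336466, LOC4351203 and LOC4332233 stood at 3.46, 3.13 and 3.02 in Mei1 and at 140, 125 and 118 in M2. Of the 31, 7 were at least 10-fold higher than Mei1 in a later stage, as were 1455 of the 36050 tested. LOC4328929 had another pattern, with 0.286 in M2 and 64.0 in P1. The median log2 level of the 31 ran from 3.62 to 4.05 over the M1 arrays and from 0.37 to 0.59 over the P3 arrays.

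**Figure D3:**
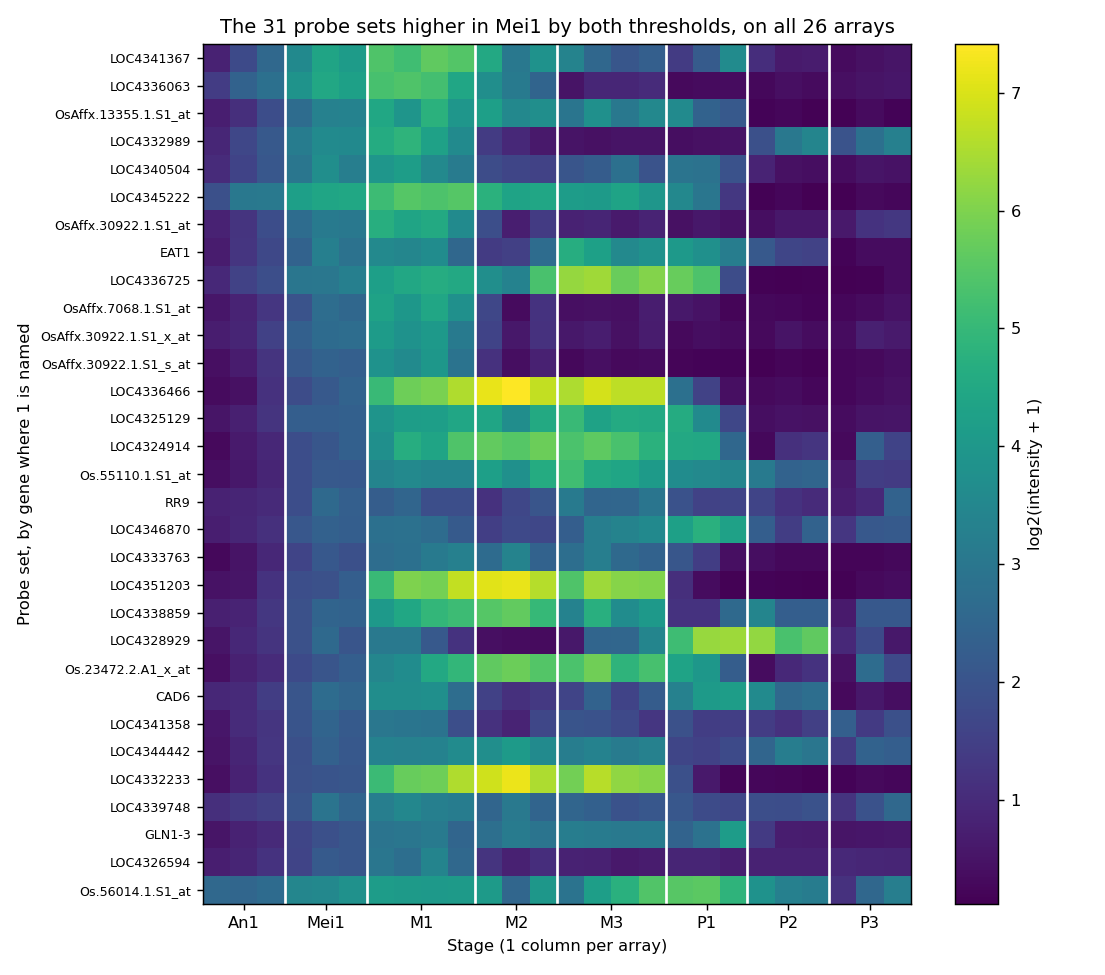
Colour shows log2(intensity + 1) of the 31 probe sets past both thresholds (rows, by gene where 1 is named) on all 26 arrays (columns, by stage). All rows are brighter in Mei1 than in An1, by which they were chosen, and 14 of the 31 have their highest stage mean in M1.

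Of the anther wall and tapetum regulators, EAT1 alone passed among 8 genes tested, against 0.336% of all tested probe sets on the higher side. The median difference was 0.33 (0.14 with hybridization spike-in scaling), against 0.0033 over all probe sets. At an unadjusted p under 0.05, 4 of the 8 were higher and 1 was lower, against 4.94% and 3.96% of all tested probe sets. TDL1A had 1.65, 1.79 and 1.77 in An1 and 2.86, 2.15 and 2.72 in Mei1 (log2 difference 0.38, limma adjusted p = 0.185). GAMYB, the gibberellin-responsive MYB factor of anthers, had 6.42, 8.08 and 6.91 against 9.95, 9.30 and 9.20 (log2 difference 0.37, limma adjusted p = 0.285). Neither overlapped between stages, as was the case for 3072 of 36050 probe sets (8.52%) on the higher side. Both were chosen for the smallest p of the list. MSP1 differed by -0.32, TDR by 0.38 and TIP2 by 0.30, named after their values were seen. Of the later tapetal genes, RTS and CYP703A3 differed by 0.13 and 0.01, at intensities of 0.401 or less on all 6 arrays.

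No member of the germ cell and meiosis list passed among 20 tested, with a median of 0.04 (-0.11 with hybridization spike-in scaling). At an unadjusted p under 0.05, 3 were higher and 1 was lower, against 4.94% and 3.96% of all tested probe sets. DMC1, the meiotic recombinase, had 0.432, 0.894 and 0.568 in An1 and 1.21, 1.23 and 1.35 in Mei1 (log2 difference 0.48, limma adjusted p = 0.107). PAIR2, a protein of the meiotic chromosome axis, had 5.77, 7.13 and 6.69 against 8.75, 8.73 and 9.63 (log2 difference 0.42, limma adjusted p = 0.185). In both genes every Mei1 array lay above every An1 array, as in 8.52% of all tested probe sets. Both were chosen for the smallest p of the list. MUS81, an endonuclease of recombination, had 2.67, 2.66 and 2.68 against 2.13, 2.10 and 2.26 (log2 difference -0.21). MEL1 differed by -0.18 and the synaptonemal complex gene ZEP1 by -0.10.

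None of the 29 DNA replication genes tested passed between An1 and Mei1, which is labelled as S or G2 phase. Of the 29, 25 had differences below 0, against 17423 of the 36050 tested probe sets, and the median was -0.15. The medians of the list were 2.40, 2.33 and 2.45 on the An1 arrays and 1.86, 2.46 and 2.40 on the Mei1 arrays. Mei1 replicate 1 was the low array: in 24 of the 29 genes it was the lowest of its stage, against 41.3% of all tested probe sets, and without it the median was -0.03. MCM4, of the replicative helicase, had 4.70, 4.14 and 5.34 in An1 and 2.18, 4.32 and 4.34 in Mei1. polD1, a subunit of DNA polymerase delta, had 5.38, 5.20 and 5.49 against 2.91, 5.51 and 4.41. RPA70a, a subunit of the protein that coats single-stranded DNA, had 3.26, 3.32 and 3.42 against 4.23, 3.62 and 3.95. It was the 1 member with an unadjusted p under 0.05, against 4.94% higher and 3.96% lower of all tested probe sets. The 5 histone genes tested, all of H2B, had a median of -0.23, and of -0.07 without Mei1 replicate 1. H2B.7 had 31.9, 36.4 and 36.9 in An1 and 16.3, 36.1 and 29.1 in Mei1. Its stages overlapped.

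The genes of mitosis did not pass either. Shares at an unadjusted p under 0.05, here and in the lists that follow, stand against 4.94% higher and 3.96% lower over all tested probe sets. Of 36 mitotic cell cycle genes tested 1 was higher and 9 were lower at an unadjusted p under 0.05, with a median of -0.10 (-0.09 without Mei1 replicate 1). CYCB1-1, a mitotic cyclin, had 12.1, 12.5 and 12.9 in An1 and 9.32, 11.2 and 8.18 in Mei1 (log2 difference -0.37). CYCB1-3 had 1.295, 1.22 and 1.22 against 0.566, 0.951 and 0.768 (log2 difference -0.36, limma adjusted p = 0.185). CYCA2-1 had 6.24, 5.33 and 5.55 against 2.79, 5.07 and 4.16 (log2 difference -0.45). In these 3 cyclins, which were chosen for the smallest p of the list, every Mei1 array lay below every An1 array. Over the 36 genes, stages did not overlap in 8 on the lower and 2 on the higher side. Of all 36050 tested probe sets this held for 2378 (6.6%) and 3072 (8.52%). Of 32 kinesins, the microtubule motors, 0 were higher and 10 lower at an unadjusted p under 0.05, with a median of -0.12 (-0.07 without Mei1 replicate 1). KIN10A had 7.25, 6.04 and 6.99 against 4.48, 5.06 and 4.75 (log2 difference -0.43, limma adjusted p = 0.147). KIN12E and KIN10B differed by -0.36 and -0.31.

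Other regulators of proliferation and small RNA pathways had differences mostly below 0, with no member past the adjusted p. Of 21 growth-regulating (GRF) and SPL factors, 0 were higher and 6 lower at an unadjusted p under 0.05 (median -0.09), against 4.94% and 3.96% of all tested probe sets. The medians of the list were 1.88, 2.02 and 1.98 on the An1 arrays and 1.98, 1.64 and 1.53 on the Mei1 arrays, so that Mei1 replicate 1 lay among the An1 arrays. GRF5 came closest, with 3.08, 2.85 and 2.94 in An1 and 1.80, 2.12 and 1.89 in Mei1 (log2 difference -0.43, limma adjusted p = 0.0561). GRF4 and GRF8 differed by -0.32 and -0.26. Of 22 genes of small RNA and DNA methylation, 0 were higher and 4 lower (median -0.14). AGO4B, an Argonaute of RNA-directed DNA methylation, had 22.5, 24.5 and 21.3 against 15.6, 20.03 and 15.6 (log2 difference -0.40). The Dicer gene DCL2A and the RNA polymerase gene RDR4 differed by -0.26 and -0.25. The stages did not overlap in any of these 6 genes, which were chosen for the smallest p of their lists, as in 6.6% of all tested probe sets on the lower side.

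In the hormone lists, few members passed the adjusted p and the medians lay near 0. Over all tested probe sets 0.336% passed as higher and 0.0166% as lower. At an unadjusted p under 0.05, 7 of 50 auxin genes were higher and 3 lower, against 4.94% and 3.96% of all tested probe sets. These counts were 2 and 1 of 24 cytokinin genes, 3 and 0 of 25 jasmonate genes, and 2 and 1 of 13 gibberellin genes. RR9 was 1 of 24 cytokinin genes tested to pass, while RR6 differed by 0.42 with overlapping stages. Of 50 auxin genes, ARF18 and IAA14 passed, and GH3.4, which conjugates auxin to amino acids, had 0.851, 1.03 and 1.02 in An1 and 1.47, 1.93 and 2.19 in Mei1 (limma adjusted p = 0.0697). None of 25 jasmonate genes passed. JAZ9, a repressor of jasmonate response, had 1.68, 1.60 and 2.09 against 2.85, 4.97 and 5.43 (log2 difference 0.93, limma adjusted p = 0.0724), whereas JAZ11 differed by 0.21. The stages did not overlap in JAZ9 or GH3.4, as in 8.52% of all tested probe sets on the higher side. Both were chosen for the smallest p of their lists. None of 13 gibberellin genes passed, and GA20OX3, a synthesis enzyme, differed by 0.27. The medians of the cytokinin, auxin, jasmonate and gibberellin lists were -0.00, -0.03, 0.03 and 0.07, and with hybridization spike-in scaling -0.11, -0.15, -0.15 and -0.02.

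Among the sugar supply genes, the 3 with the smallest p were sugar transporters of the SWEET family. SWEET1a was the 1 of 27 sugar supply genes to pass, against 0.336% of all tested probe sets on the higher side. Its other tested probe set differed by 0.12, at an An1 mean of 0.318, and was not called. At an unadjusted p under 0.05, 5 of the 27 were higher and 2 lower, against 4.94% and 3.96% of all tested probe sets. SWEET6a had 0.223, 0.322 and 0.516 in An1 and 0.809, 1.05 and 1.35 in Mei1 (log2 difference 0.61, limma adjusted p = 0.0519). SWEET11 had 3.24, 2.31 and 2.61 against 4.98, 3.94 and 4.86 (log2 difference 0.59, limma adjusted p = 0.0849). All Mei1 arrays of both genes lay above all An1 arrays, as in 8.52% of all tested probe sets, but both were chosen for the smallest p. The median of the list was 0.05 (-0.05 with hybridization spike-in scaling), and SUS2, a sucrose synthase named after its values were seen, differed by -0.47.

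No floral organ gene passed the adjusted p. None of the 5 stamen MADS-box genes had an unadjusted p under 0.05. Of 29 other floral organ and meristem genes, 2 were higher and 7 lower at that threshold, against 4.94% and 3.96% of all tested probe sets. MADS6 had 1.24, 1.47 and 1.47 in An1 and 0.986, 0.729 and 0.619 in Mei1 (log2 difference -0.43, limma adjusted p = 0.102). MADS1 had 0.874, 1.13 and 0.856 against 0.654, 0.658 and 0.386 (log2 difference -0.32). DL, which specifies carpels, differed by -0.14. MADS6, MADS1 and DL did not overlap between stages, as in 6.6% of all tested probe sets on the lower side. These genes were chosen for the smallest p of their list. In the other transcription factor lists, WRKY71 had 4.91, 5.51 and 4.23 against 3.70, 2.54 and 2.74 (log2 difference -0.56, limma adjusted p = 0.149). The homeodomain gene Roc3 differed by -0.37 and NAC071 by -0.21.

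**Figure D4:**
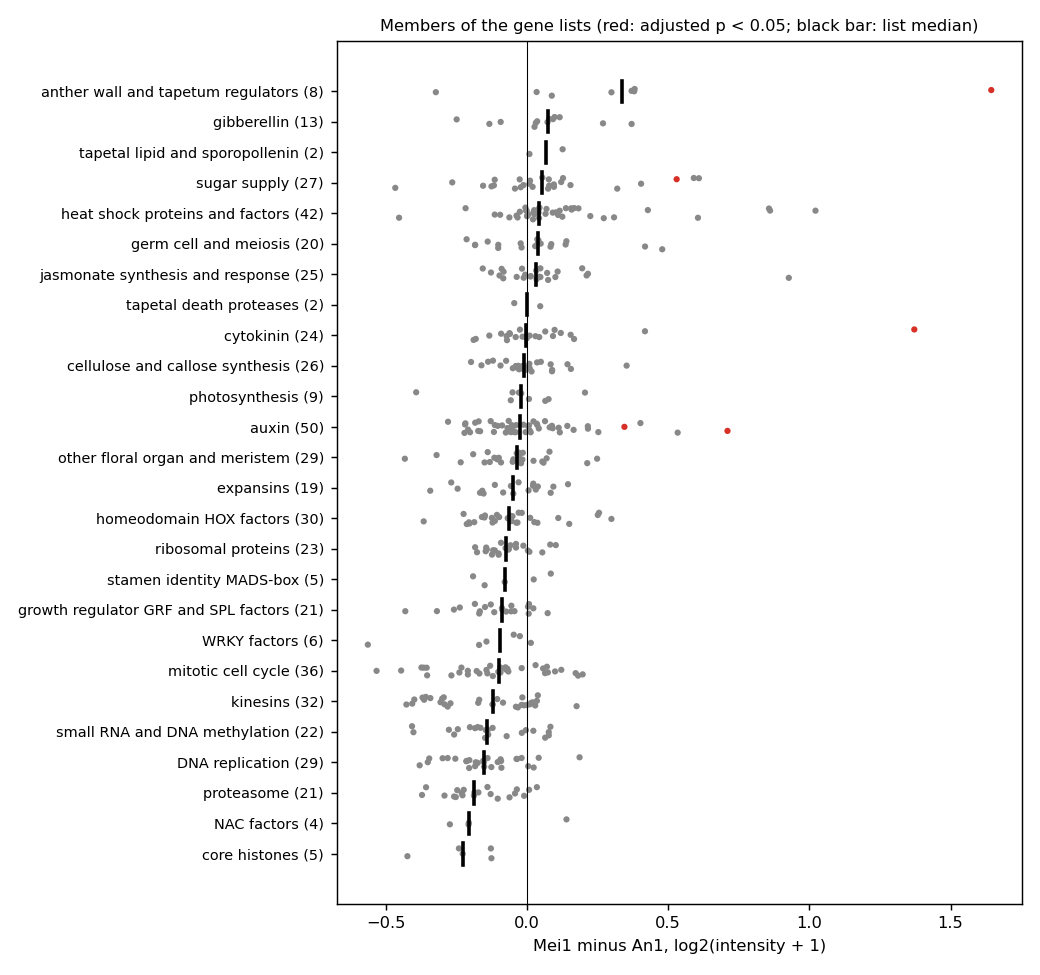
Each point is the Mei1 minus An1 difference on log2(intensity + 1) of 1 gene of a list (rows, with the number tested), red where the limma adjusted p is under 0.05, and the black bar is the list's median. The 5 red points are EAT1, RR9, ARF18, IAA14 and SWEET1a, and list medians run from -0.23 (histones) to 0.33 (anther wall and tapetum regulators).

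Housekeeping and stress lists had no member past the adjusted p. Of 21 proteasome genes, 19 had differences below 0 (median -0.19, and -0.13 without Mei1 replicate 1), and 5 were lower at an unadjusted p under 0.05. PAF1 had 15.3, 14.2 and 14.2 in An1 and 9.70, 13.2 and 10.5 in Mei1 (log2 difference -0.37). The 23 ribosomal protein genes had a median of -0.08 and none had an unadjusted p under 0.05. Of 42 heat shock genes, 31 had differences above 0, with a median of 0.04 that was -0.07 with hybridization spike-in scaling. Over all tested probe sets 51.67% of differences were above 0. The medians of the heat shock list were 1.10, 1.12 and 1.14 on the An1 arrays and 1.12, 1.63 and 1.41 on the Mei1 arrays. Mei1 replicate 1 thus lay at the An1 level. HSP16.9A, a small heat shock protein gene, had 0.463, 0.221 and 0.288 in An1 and 0.237, 2.32 and 3.69 in Mei1. Its Mei1 replicate 1 lay among the An1 arrays. HSP17.9A had 18.9, 14.8 and 19.9 against 30.3, 22.9 and 29.8 (log2 difference 0.61, limma adjusted p = 0.185), with no overlap. Neither the 19 expansins nor the 26 cellulose and callose synthesis genes held a member past the adjusted p, and CSLC2 differed by 0.35 and EXPB7 by -0.25. The 9 photosynthesis genes and the tapetal proteases AP25 and VPE1 had no unadjusted p under 0.05.

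The genes called were in part neighbours in the genome. By gene order in the RefSeq table, 8 of the 92 called genes (8.70%) had another called gene with at most 1 gene between, against 191 of 15179 tested genes (1.26%). Ehd3 and LOC4344442 lie next to each other, with differences of 0.66 and 1.26 on the probe sets that passed, while the brighter probe set of Ehd3 differed by -0.15. The other pairs were LOC4332233 with LOC4332236, LOC4344940 with LOC4344941, and LOC4350861 with LOC4350863. On the probe sets that passed, all 8 genes were higher in Mei1. Whether their probe sets read the same transcripts was not tested.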

How the data were processed

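Rice anther RNA was read on Affymetrix Rice Genome Arrays. The authors deposited linear intensity values, and the 75th percentile of each array is 1; GCOS 1.3 is named in the submitters' processing notes without its step, and background settings and detection calls are not given in the sources used here. Array values have no counts behind them, and precision is limited by the 3 arrays a stage. Of 57381 probe sets, 187 controls were left out. Those with an An1 or Mei1 mean above the 40th percentile of the 6 arrays, 36050 of 57194, were tested on log2(intensity + 1) with limma 3.58.1 in R 4.3.3 (lmFit and eBayes with an intensity trend, two-sided, Benjamini-Hochberg over the probe sets tested). The fit was tested on simulated data.

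Of all probe sets 22436 name 1 gene, 95 several and 34663 none. Symbols came from the array's gene table and a RefSeq table of assembly ASM3414082v1, used for names and gene order alone; 2445 of 17905 genes had one. Lists used 1 probe set a gene, that with the highest mean over 26 arrays.

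The comparison, gene lists and thresholds were chosen with earlier results of these data known. Genes named are the 10 largest rises and falls past both thresholds (filled from the adjusted p alone), the 12 largest among genes with a symbol, and the 3 members of each list with the smallest p. The rises and falls were limited to probe sets whose replicates did not overlap between stages, which held for all 127 called. Replicate numbers recur between stages, but the labels do not say that they pair the arrays, so no block was used. Other software was matplotlib 3.10.9, numpy 2.4.6 and pandas 2.3.3 under Python 3.11.15. Alternatives changed the pseudocount, filter, scaling, variance model, arrays and probe sets.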

Additional observations from a re-analysis of the deposited data

Results flagged for a closer look

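Over the 46 pairs of gene and stage examined in stages of 4 arrays, 1 array lay far from the others, while chance alone marks about 1 in 20 groups. CAD6, which rose from An1 to Mei1, had an intensity of 5.56 on M1 replicate 4, against 11.9 to 12.5 on the other M1 arrays. The same array was also the lowest of M1 for EAT1, at 4.845 against 9.979 to 11.599. For LOC4336466 it was the highest, at 92.54 against 32.346 to 60.518. This array is not part of the An1 and Mei1 comparison.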

How the results depend on the processing

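The counts of calls moved with most settings, given here as probe sets higher in Mei1 past both thresholds, then higher and lower by the limma adjusted p alone (31, 121 and 6 as reported). They were 7, 100 and 3 with a pseudocount of 4 and 63, 117 and 6 with 0.25. Without the filter they were 36, 168 and 13, and with a filter at the 60th percentile 20, 64 and 2. Median-centred arrays gave 29, 79 and 8, poly-A spike-in scaling 37, 108 and 1, and hybridization spike-in scaling 31, 90 and 21 with 5 lower past both. Without the intensity trend all were 0. Array weights gave 42, 808 and 469, and a fit over all 26 arrays 12, 19 and 9. Leaving out 1 array gave 0 to 53, 0 to 265 and 0 to 110, with 0 to 2 lower past both thresholds.

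A replicate block gave 36, 96 and 3, and all 31 still passed both thresholds. Over all tested probe sets, deviations of arrays with the same number correlated at -0.07, -0.31 and -0.01. Among the 31, replicate 1 was the lowest array in 30 for An1 and in 31 for Mei1. The labels do not say whether the numbers pair the arrays, and these values cannot settle it.

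With hybridization spike-in scaling, the medians of the germ cell and meiosis, jasmonate, gibberellin, sugar supply and heat shock lists turned below 0. Their values are given with those lists. Among named genes, the sign turned only in some that had not passed. CYP703A3 was at -0.0076 with quantile normalization, -0.0085 with median-centred arrays, -0.0117 with array weights, -0.0388 with hybridization spike-in scaling and from -0.0831 to 0.0731 with 1 array left out. VPE1 was at 0.0033 with poly-A spike-in scaling and from -0.198 to 0.0713 with 1 array left out. AP25 and MADS16 were at -0.15 and -0.13 with hybridization spike-in scaling. The tapetal lipid list had no gene left at the 60th percentile. The cause of these shifts was not tested.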
